A study of Mus musculus with 13 samples.

Results

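The genes that make, store and take back catecholamines were followed across 13 mouse aortas. The 10 genes were taken by symbol. Th, Ddc, Dbh and Pnmt encode the enzymes of the pathway, Slc18a1 and Slc18a2 the vesicular monoamine transporters, and Slc6a2 the noradrenaline transporter of the plasma membrane. Chga and Chgb encode granins of the secretory granule, and Npy a peptide released with noradrenaline. All 10 were found among the 54532 genes of the count table. They were chosen by their role and by their levels in these aortas, which were already known to differ widely, so those levels are given as a description with no test.

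All 13 mice were ApoE-/- and all received angiotensin II (AngII) from a subcutaneous slow-release pump, at 1000 ng/kg/min for up to 28 days from 10 weeks of age, the infusion model of abdominal aortic aneurysm. The 6 mice labelled Ad-sham were given empty adenovirus and the 7 labelled Ad-FAM3A an adenovirus carrying FLAG-tagged mouse Fam3a under the EF1A promoter, with mCherry, in 5 weekly tail vein injections. Neither the promoter nor this route limits the transgene to the aorta. The study's methods allowed male or female mice, and its results describe females only for recombinant FAM3A protein. The sex of these animals is not given in the labels. Each whole aorta, dissected under a stereomicroscope, was 1 library of 1 mouse.

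Catecholamines are made from tyrosine. Tyrosine hydroxylase, encoded by Th, makes L-DOPA in the rate-limiting step, Ddc converts it to dopamine, Dbh makes noradrenaline inside the vesicle, and Pnmt methylates noradrenaline to adrenaline. Sympathetic neurons, whose fibres run in the adventitia of arteries and whose cell bodies lie in ganglia beside the abdominal aorta, stop at noradrenaline and recover it through Slc6a2. Chromaffin cells of the adrenal medulla share nearly the whole set and are the main site of Pnmt. Chga and Chgb are made by chromaffin cells and, at lower levels, by sympathetic neurons, so Chga alone does not separate the tissues. Pnmt and the steroid enzymes of the adjoining adrenal cortex are further genes made in the adrenal gland, but their absence alone does not identify sympathetic neurons.

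Several genes of this set are known for a promoter element, the cAMP response element TGACGTCA, which is bound by CREB and related factors. RefSeq promoter windows, 250 bases before and 50 bases after a start on GRCm38.p6, matched 7 of the 10 genes, with 8 windows because Ddc has 2, while Pnmt, Slc6a2 and Slc18a1 had none. Searched on both strands, TGACGTCA, which is its own reverse complement, was found in 3 of the 8 windows, those of Th, Chgb and Slc18a2. It occurred in 588 of all 32851 windows, or 1.79%. The shorter TGACGT, which lies within the full element, or its reverse complement ACGTCA, occurred in 2468 windows, or 7.51%, and was the only form in the Chga window. The element lay 45 to 38 bases before the start in Th, 72 to 65 in Chgb and across the start in Slc18a2, and the shorter form lay 44 to 39 bases before the start in Chga. The windows that hold it are shown 5′ to 3′ on the strand of the gene, with the match in capitals.
Th, chr7:142899946-142900245, minus strand: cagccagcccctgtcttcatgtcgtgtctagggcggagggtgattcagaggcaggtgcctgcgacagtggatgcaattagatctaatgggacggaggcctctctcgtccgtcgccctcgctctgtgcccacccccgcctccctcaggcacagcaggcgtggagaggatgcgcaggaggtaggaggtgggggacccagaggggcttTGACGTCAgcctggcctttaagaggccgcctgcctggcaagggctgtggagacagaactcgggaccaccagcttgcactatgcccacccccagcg
Chgb, chr2:132781392-132781691, plus strand: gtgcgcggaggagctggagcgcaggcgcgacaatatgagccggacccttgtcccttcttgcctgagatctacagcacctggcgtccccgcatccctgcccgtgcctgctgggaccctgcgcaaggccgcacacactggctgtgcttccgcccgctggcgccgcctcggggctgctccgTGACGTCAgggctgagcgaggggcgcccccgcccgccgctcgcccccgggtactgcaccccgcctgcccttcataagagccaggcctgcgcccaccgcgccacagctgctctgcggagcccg
Slc18a2, chr19:59260628-59260927, plus strand: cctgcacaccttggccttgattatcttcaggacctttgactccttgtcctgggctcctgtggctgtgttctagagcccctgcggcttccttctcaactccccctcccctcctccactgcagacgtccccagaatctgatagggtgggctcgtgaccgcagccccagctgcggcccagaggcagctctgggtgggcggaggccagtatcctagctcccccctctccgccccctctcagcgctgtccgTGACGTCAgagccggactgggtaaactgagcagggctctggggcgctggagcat
Chga, chr12:102554691-102554990, plus strand: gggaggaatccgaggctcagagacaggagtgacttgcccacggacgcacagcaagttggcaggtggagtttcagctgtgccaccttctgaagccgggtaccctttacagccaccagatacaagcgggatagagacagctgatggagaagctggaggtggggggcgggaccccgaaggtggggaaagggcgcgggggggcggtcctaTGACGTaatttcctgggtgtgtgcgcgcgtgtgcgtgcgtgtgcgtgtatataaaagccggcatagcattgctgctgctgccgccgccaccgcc
The windows of Dbh, Npy and Ddc held neither form. A match describes these letters only, and whether a factor occupied any of them was not measured.

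Counts on genes summed to between 14481179 and 19797407 per aorta, and levels are given as CPM, counts scaled to library size and composition by TMM. A gene with 0 counts could still have had up to 3, which is 0.14 to 0.221 CPM. Intervals and limits in the text cover counting error only. The gene carried by the virus, Fam3a, averaged 24.4 ± 4.27 CPM (SD) over the 6 Ad-sham aortas and 24 ± 4.64 CPM over the 7 Ad-FAM3A aortas, a log2 change of -0.03 ± 0.16 by the fit (SE; edgeR quasi-likelihood test, adjusted p = 0.971), a difference smaller than its standard error. Smooth muscle genes (Myh11, Acta2, Cnn1) summed to 2030 to 16400 CPM in every aorta, and the fat genes Adipoq and Ucp1 to 611 to 2870 CPM. A kidney list of 7 genes reached 630 CPM in Ad-sham6, 352 in Ad-FAM3A3, 208 in Ad-sham3 and 144 in Ad-sham5.

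The 9 genes other than Pnmt differed by orders of magnitude between aortas, in nearly the same order. Ad-sham5 was among the 3 highest aortas for 9 of these 9 genes, Ad-sham3 for 8 and Ad-FAM3A3 for 7. Ad-sham2, Ad-sham4 and Ad-FAM3A4 were among the 4 lowest for all 9, and Ad-FAM3A5 for 8. High and low aortas were thus found under each label. In whole-aorta RNA, fewer cells of a type and less RNA per cell cannot be told apart.

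**Figure D1:**
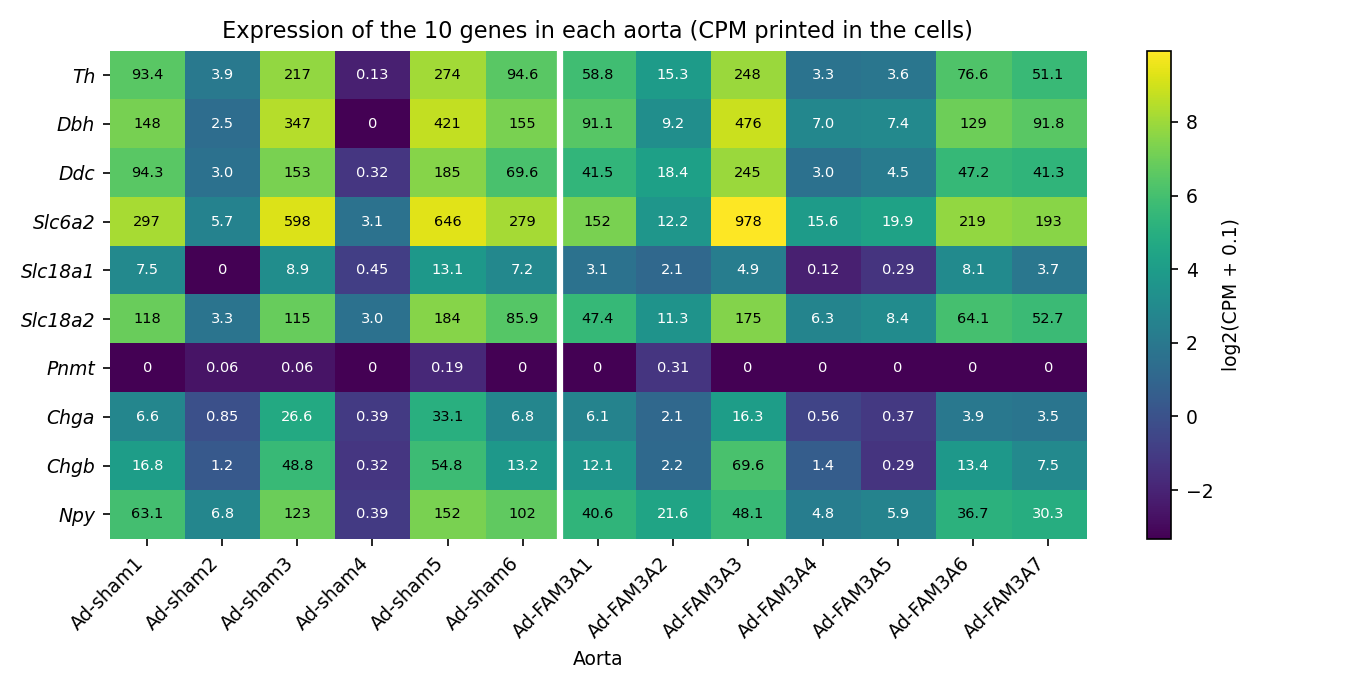
Each cell gives the CPM of a gene (rows) in an aorta (columns), coloured by log2(CPM + 0.1); the white line parts the 6 Ad-sham from the 7 Ad-FAM3A aortas. Th ran from 0.128 CPM in Ad-sham4 to 274 in Ad-sham5, and the other rows, Pnmt apart, follow the same dark and bright columns.

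The enzymes up to noradrenaline were described first. Th (ENSMUSG00000000214) lies on chromosome 7 of GRCm38 from 142892752 to 142931128. Its lowest, median and highest values were 0.128, 94 and 274 CPM in Ad-sham and 3.26, 51.1 and 248 CPM in Ad-FAM3A. The ranges overlapped over most of their length, with 5862 counts in Ad-sham5, 3519 in Ad-FAM3A3, 3442 in Ad-sham3 and only 2 in Ad-sham4. Ddc (ENSMUSG00000020182, chromosome 11, 11814101 to 11898144) ran from 0.321 to 185 CPM in Ad-sham, with a median of 81.9, and from 2.95 to 245 CPM in Ad-FAM3A, with a median of 41.3. Dbh (ENSMUSG00000000889, chromosome 2, 27165233 to 27183200) reached 421 CPM in Ad-sham, with a median of 151, and ran from 6.96 to 476 CPM in Ad-FAM3A, with a median of 91.1. Dbh had 0 counts in Ad-sham4, the aorta with the fewest Th reads.

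The transporters and the peptide spanned a similar range. Slc6a2 (ENSMUSG00000055368, chromosome 8, 92960079 to 93001667), which returns noradrenaline to the neuron, had the most counts of the 10 genes, 56289 over all aortas. It ran from 3.08 to 646 CPM in Ad-sham, with a median of 288, and from 12.2 to 978 CPM in Ad-FAM3A, with a median of 152. Ad-FAM3A3 was the highest aorta and Ad-sham4, with 48 counts, the lowest. Slc18a2 (ENSMUSG00000025094, chromosome 19, 59260878 to 59296012), the vesicular transporter of sympathetic neurons and also of mast cells and platelets, ran from 2.95 to 184 CPM in Ad-sham and from 6.27 to 175 CPM in Ad-FAM3A. Npy (ENSMUSG00000029819, chromosome 6, 49822710 to 49829507) ran from 0.385 to 152 CPM in Ad-sham, with a median of 82.5, and from 4.83 to 48.1 CPM in Ad-FAM3A, with a median of 30.3. Npy in Ad-FAM3A3, 48.1 CPM, was below 4 Ad-sham aortas, although Th, Dbh and Slc6a2 in that aorta were near or above the highest Ad-sham values.

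Ad-sham4 kept 48 counts of Slc6a2 and 46 of Slc18a2 beside 2 of Th and 0 of Dbh. Mast cell genes were present in all 13 aortas, with 40 to 450 counts of Cpa3, a mast cell protease, and a list of 7 mast cell genes that summed to 48.6 to 134 CPM in Ad-sham and 40.7 to 120 CPM in Ad-FAM3A. Among them 1 of the 7 genes, Ms4a2, was at 0 in some aortas. The part of mast cells in the Slc18a2 counts was not tested.

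Compared per kilobase of gene length, the median levels over 13 aortas were in the order Npy (64.9 CPM per kb), Dbh (34.1), Slc6a2 (30.7), Th (24.9), Slc18a2 (13.9), Ddc (9.31), Chgb (4.42), Chga (1.4), Slc18a1 (0.687) and Pnmt (0). Neighbours in this order differed by less than the spread between aortas, since Th alone ran from 0.0543 to 116 CPM per kb and Slc18a1 from 0 to 2.43. Within the same aorta the granins nevertheless stood well below Th, with a median over 12 aortas of 10.2 Chga and 19 Chgb reads per 100 Th reads.

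Pnmt (ENSMUSG00000038216, chromosome 11, 98386450 to 98388181) was near 0 throughout. It had 4 counts in Ad-sham5, 1 in Ad-sham2, 1 in Ad-sham3 and 5 in Ad-FAM3A2, and 0 in the other 9 aortas. The 11 counts stood against 19239 counts of Th, a share of 0.0571% of the pair (exact 95% Clopper-Pearson interval 0.0285% to 0.102%). Ad-FAM3A3 had 0 Pnmt counts beside 3519 of Th, which allows a share of up to 0.0853% as 3 counts (exact 95% upper bound 0.105%), and Ad-sham5 had 4 of 5866, or 0.0682% (0.0186% to 0.174%). The aortas richest in Th therefore had almost no reads of the adrenaline-making enzyme. Pnmt was below the filter on low counts and was not tested in the fit across genes.

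The share was higher in Ad-FAM3A2, an aorta with little Th. There, Pnmt was 5 of 254 counts, or 1.97% (0.642% to 4.53%), an interval above that of Ad-sham5. In Ad-sham2 it was 1 of 66, or 1.52%, but the interval, 0.0384% to 8.16%, overlapped that of Ad-sham5. In Ad-FAM3A4 and Ad-FAM3A5, which had 0 Pnmt counts, 52 and 49 Th reads allowed up to 5.77% and 6.12% as 3 counts (exact 95% upper bounds 6.85% and 7.25%), so a share like that of Ad-FAM3A2 was not detectable there. Pnmt has a close neighbour on its strand, the striated muscle gene Tcap, whose annotated end lies 1496 bases before it. Tcap had 277 counts in Ad-FAM3A2 and 408 in Ad-sham2, but 347 in Ad-FAM3A4 with 0 of Pnmt. The part of reads from Tcap or from Pgap3, 495 bases away on the other strand, was not tested.

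**Figure D2:**
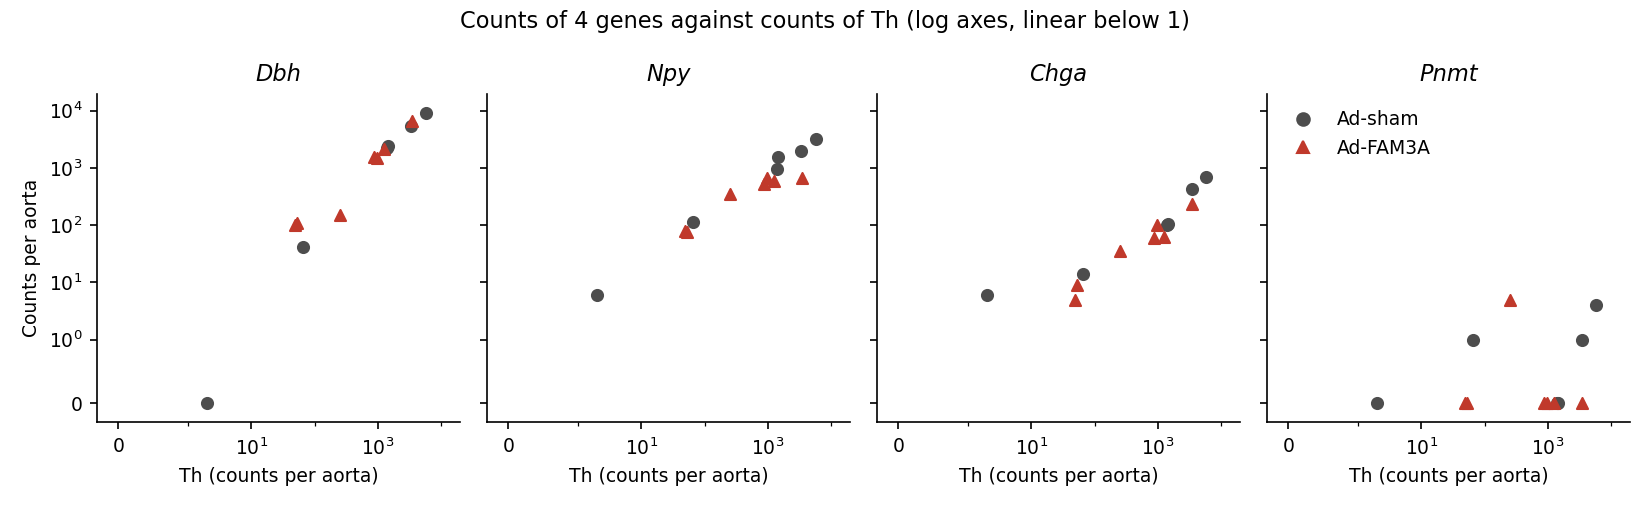
Counts per aorta of Dbh, Npy, Chga and Pnmt (vertical) against counts of Th (horizontal) on log axes that are linear below 1; circles are Ad-sham and triangles Ad-FAM3A. Dbh, Npy and Chga climb with Th from 2 to 5862 Th counts, while Pnmt stays between 0 and 5.

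Chga (ENSMUSG00000021194, chromosome 12, 102554969 to 102565028) followed the neuronal genes at a low level. Its counts in Ad-sham1 to Ad-sham6 were 100, 14, 421, 6, 708 and 105, and in Ad-FAM3A1 to Ad-FAM3A7 they were 101, 35, 231, 9, 5, 63 and 60. The highest were the same 3 aortas that had the most Th. Chgb (ENSMUSG00000027350, chromosome 2, 132781278 to 132795079) had 254, 20, 773, 5, 1173 and 206 counts in Ad-sham and 202, 36, 987, 22, 4, 219 and 129 in Ad-FAM3A. Chga was 31.6% of the 2 granins over all aortas (30.4% to 32.8%). It was 37.6% in Ad-sham5 (35.4% to 39.9%), 22.3% in Ad-FAM3A6 (17.6% to 27.7%) and 19% in Ad-FAM3A3 (16.8% to 21.3%), so Ad-sham5 differed from the other two beyond counting error, while the intervals of Ad-FAM3A6 and Ad-FAM3A3 overlapped. The granin pair was chosen after its values were seen.

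Slc18a1 (ENSMUSG00000036330, chromosome 8, 69037711 to 69089235), the vesicular transporter best known from chromaffin and other endocrine cells, was a small part of the transporter pair. It ran from 0 to 13.1 CPM in Ad-sham and from 0.125 to 8.07 CPM in Ad-FAM3A, and made up 6.48% of Slc18a1 plus Slc18a2 counts over all aortas (6.1% to 6.88%). The share was 6.65% in Ad-sham5 (5.92% to 7.45%) and 7.2% in Ad-sham3 (6.1% to 8.44%), but 2.71% in Ad-FAM3A3 (2.11% to 3.41%). Ad-FAM3A2 had 16.1% (11.4% to 21.6%) and Ad-FAM3A6 11.2% (9.44% to 13.1%). The 3 aortas with the most Th thus did not share a value. Slc18a1 overlaps 590 bases of Atp6v1b2 on the opposite strand, which had 1421 to 7895 counts. In Ad-sham2, Atp6v1b2 had 1926 counts and Slc18a1 0. Whether reads were counted by strand is not given in the sources used here.

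**Figure D3:**
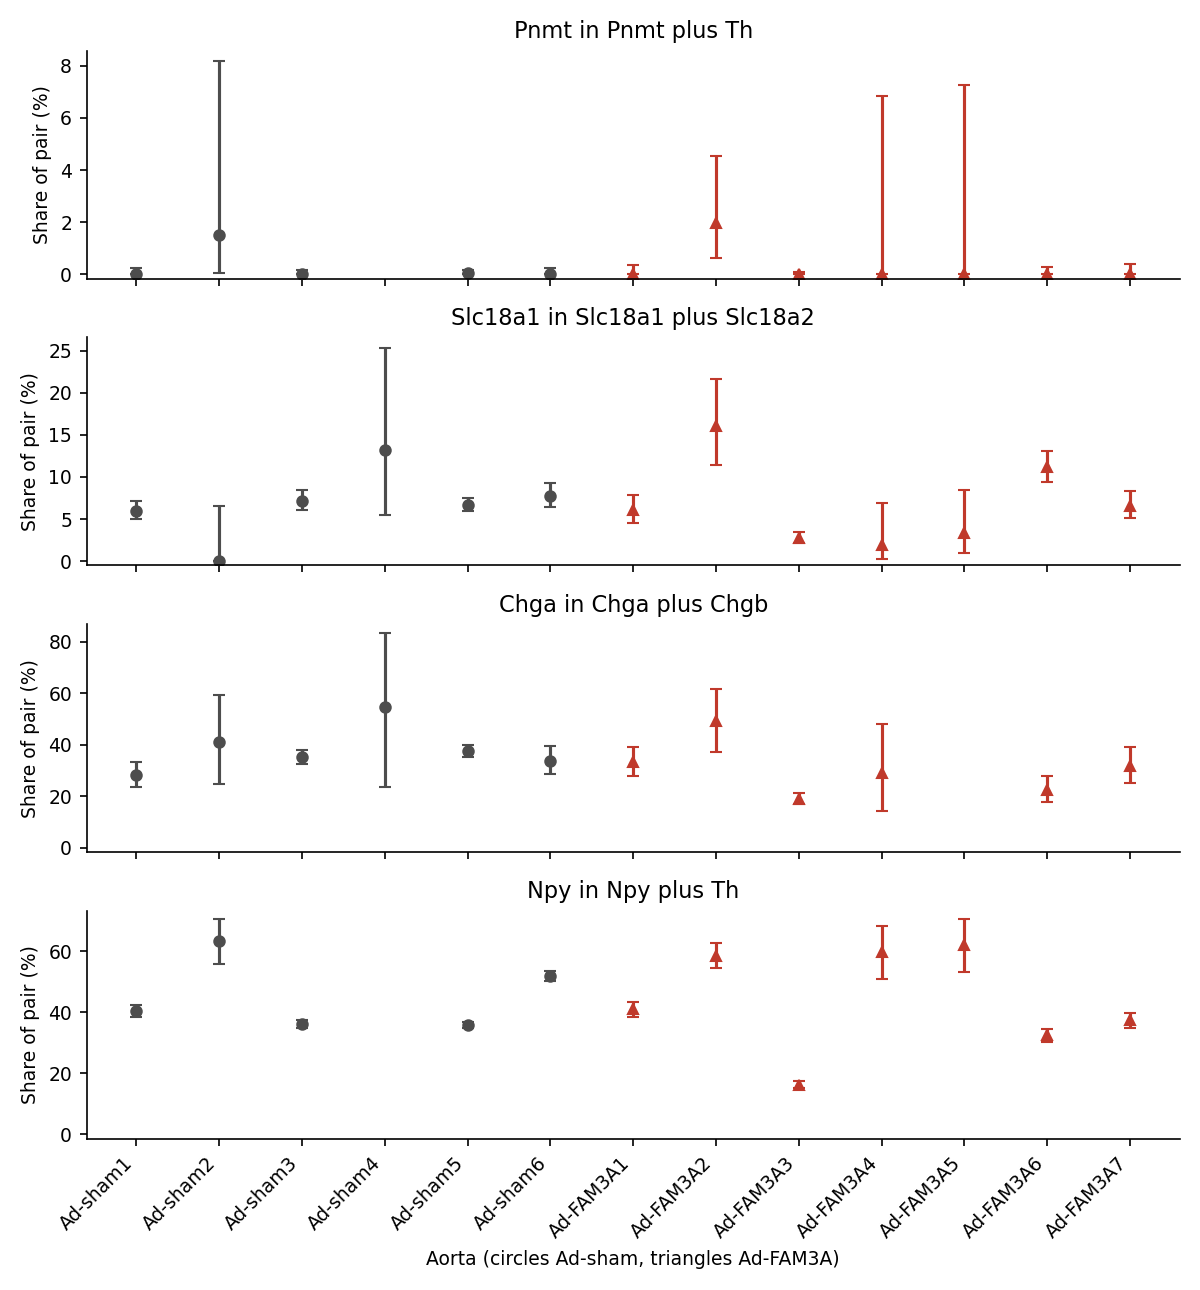
Share of the first gene in the counts of each pair by aorta, in percent, with exact 95% Clopper-Pearson intervals; a pair with fewer than 10 counts is not drawn. Pnmt stays near 0 wherever Th is abundant, and Ad-FAM3A3 lies below most other aortas for Slc18a1 (2.71%), Chga (19%) and Npy (16.2%).

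The lists of marker genes set the 10 genes beside the tissues around the aorta. The 15 peripheral neuron genes, among them Stmn2, Prph, Tubb3, Snap25 and the ganglionic receptor subunits Chrna3 and Chrnb4, summed to 73 to 2100 CPM in Ad-sham and 138 to 2560 in Ad-FAM3A, against 8.02 to 1960 and 41.9 to 2260 CPM for the 10 catecholamine genes. The lowest neuron sum was in Ad-sham2 and the highest in Ad-FAM3A3. The sympathoadrenal regulators, a list of 9 transcription factors that both lineages share, summed to 19.1 to 203 CPM in Ad-sham and 32.3 to 190 in Ad-FAM3A. Hand2 had 15 to 1005 counts and was highest in Ad-sham5.

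The steroid enzymes of the adrenal cortex had few or no counts, while other genes of that list were present in all 13 aortas. Cyp11b1, which makes corticosterone, had at most 5 counts in an aorta, Cyp11b2, the aldosterone synthase, 1 count in all, in Ad-FAM3A2, and Cyp21a1 at most 4. Cyp11a1, the first enzyme of steroid synthesis, Hsd3b1 and Nr5a1, a regulator of steroid genes, were all highest in Ad-FAM3A7, with 16, 26 and 8 counts, against at most 5, 2 and 3 elsewhere. Ad-FAM3A7 had 0 counts of Cyp11b2, Cyp21a1 and Akr1b7, and its 51.1 CPM of Th was well below Ad-sham5. Ad-FAM3A3 had 0 counts of Cyp11a1, Cyp11b1, Cyp11b2, Cyp21a1, Hsd3b1 and Akr1b7. Among the 4 aortas with Pnmt reads, Ad-FAM3A2 had 3 counts of Cyp11a1, 1 of Cyp11b2, 4 of Cyp21a1 and 4 of Akr1b7, Ad-sham2 had 3 of Cyp11a1 and 3 of Cyp21a1, Ad-sham5 had 2 of Cyp11a1 and 2 of Cyp11b1, and Ad-sham3 had 4 of Cyp11a1, with 0 of the rest of these 6 genes. Some aortas with 0 Pnmt counts also had counts of these genes, such as 5 of Cyp11b1 in Ad-FAM3A1 and, in Ad-FAM3A4, 5 of Cyp11a1, 2 of Cyp11b1, 2 of Hsd3b1 and 1 of Akr1b7. The whole list of 10 genes summed to 47.9 to 155 CPM in Ad-sham and 39.1 to 104 in Ad-FAM3A, mostly from Mrap, an accessory protein of the corticotropin receptor that fat cells also make. Mrap had 448 to 2461 counts, Mc2r, the receptor itself, 5 to 48, and Star, which brings cholesterol into mitochondria, 50 to 110. Star had 93 counts in Ad-FAM3A3, rich in Th, and 63 in Ad-sham4, and 7 of the 10 genes were at 0 in some aorta.

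Of the chromaffin peptides, Penk had 146 to 606 counts in all 13 aortas and was not highest where Th was: Ad-FAM3A1 had the most, and Ad-FAM3A3 had 177. Cartpt had 0 to 7 counts and Dlk1 11 to 85. Penk is also made by fibroblasts and other cells, and the list summed to only 12.1 to 41.5 CPM in all aortas. Cholinergic genes, which mark parasympathetic and some sympathetic neurons, were low. Chat, the acetylcholine-making enzyme, had 4 counts in all, in Ad-sham6, and the vesicular transporter Slc18a3 had 22 in Ad-sham3 and 12 in Ad-FAM3A3 and at most 1 elsewhere. Nos1 had 0 to 52 counts. Vip had 133 counts in Ad-sham3, 64 in Ad-FAM3A3 and 60 in Ad-FAM3A2, and the choline transporter Slc5a7 28 in Ad-sham3 and 30 in Ad-FAM3A3, but Ad-sham5, the aorta with the most Th, had 2 and 3. Of the 4 islet genes, Ins1 and Gcg were at 0 in all aortas, Ins2 had 1 count in all, and Sst, which some neurons also make, had 0 to 32.

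Kidney transcripts were abundant in several of the aortas rich in catecholamine genes. Kap, an androgen-regulated proximal tubule gene, had 7604 counts in Ad-sham6, 2353 in Ad-FAM3A3, 2101 in Ad-sham3 and 1573 in Ad-sham5. It had 11 counts in Ad-sham1, 1 in Ad-FAM3A6 and 0 in Ad-FAM3A1 and Ad-FAM3A7, where Th was between 51.1 and 93.4 CPM. In these aortas the whole kidney list summed to 2.12, 1.28, 2.22 and 1.56 CPM in the order Ad-sham1, Ad-FAM3A6, Ad-FAM3A1 and Ad-FAM3A7. Aqp2 had 5 to 65 counts in all 13. Kidney reads also occurred with little Th, with 451 counts of Kap in Ad-FAM3A2 (15.3 CPM of Th) and 84 in Ad-sham4 (0.128 CPM of Th). The part of tissue dissected with the aorta in their level was not tested.

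**Figure D4:**
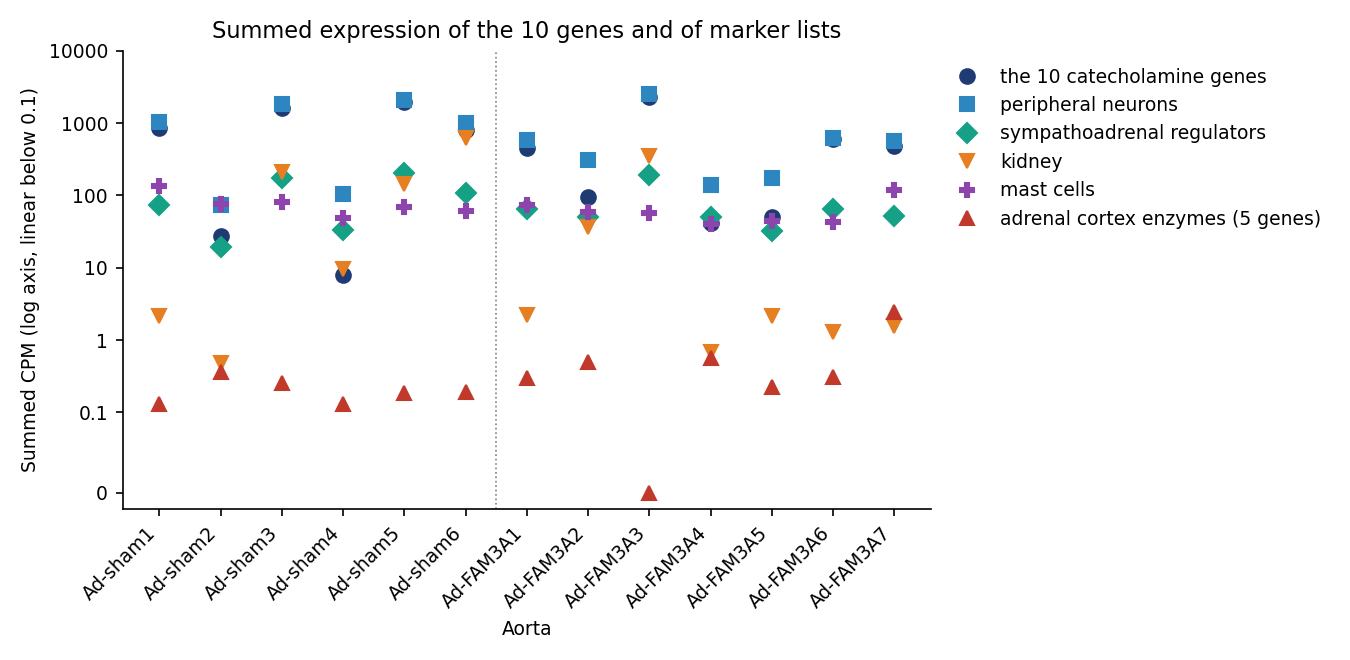
Summed CPM of the 10 catecholamine genes and of 5 marker lists in each aorta, on a log axis that is linear below 0.1; the dotted line parts Ad-sham from Ad-FAM3A. The catecholamine and neuron sums lie close together where high, the kidney sum spans 0.485 to 630 CPM, and the 5 adrenal cortex enzymes lie near or below 1 CPM except in Ad-FAM3A7.

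Likeness to a gene was measured as the SD over the 13 aortas of the log2 ratio of another gene to it, which is small where counts keep a constant ratio. To Th, the SD was 0.432 for Ddc, 0.713 for Dbh, 0.942 for Slc6a2, 0.96 for Npy, 1.02 for Chgb, 1.18 for Slc18a2, 1.35 for Chga and 1.64 for Slc18a1, against a median of 3.1 over all genes kept. The median over these 8 genes was 0.991, and 0.651 without Ad-sham4, the aorta with 2 Th counts. Log2 CPM of Th itself had an SD of 3.06, where the median gene had 0.463. The aortas fell into separate levels of Th, so no correlation across them is given.

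Of the 45 places among the 5 genes closest to each of the 9, 11 were held by genes of the peripheral neuron list, 2 by other members, 1 each by a granule gene and a regulator, and 30 by genes of no list. To Slc6a2, Slc18a2 and Chga, 0 of the 5 closest were of the neuron list. To Th they were Ddc, Snap25, Slc10a4, Chrna3 and Prph. To Dbh they were Syt1, Snap25, Pirt, Slc10a4 and Chrna3, and to Ddc, Sult4a1, Prph, Th and Nrsn1. To Slc6a2 they were Epha5, at an SD of 0.24, then Snap91, Add2 and Scn9a. To Slc18a2 they were A730017C20Rik, Eef1a2, Rtn1 and Dner, and to Slc18a1, at SDs of 0.643 or more, Nrsn2, Scg2, Tubb3, Tenm2 and Plppr5. To Npy they were Syt5, Rab3b, Vstm2l, Prph and Gng3, and to Chgb, Nefh, Cdk5r2, Hcrtr1, Myt1l and Crmp1. The names depend on the measure: by Spearman correlation, 7 of these 45 places were filled by the same genes, and with a prior count of 0.5 instead of 2, 26.

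Chga was closest to Avil, at an SD of 0.462, and then to Bcan, Gm49027, Syngr3 and Caly. Among the 500 genes closest to Chga were 10 of the 15 peripheral neuron genes, 7 of 8 granule genes such as Scg5 and Pcsk1n, and 4 of 8 regulators. Elavl3, an RNA-binding protein of neurons, was at rank 13 of 15810, Gap43, of growing axons, at 19, and Hand2 at 28. Among the 500 closest to Th were 14 of 15 neuron genes, 7 of 8 granule genes and 4 of 8 regulators. Only 3 of the 10 adrenal cortex genes (Star, Mrap and Mc2r) and 2 of the 3 chromaffin peptide genes passed the filter on low counts, and 0 of these were among the 500 closest to any of the 9 genes, by either measure. The steroid enzymes and Pnmt were below the filter and could not appear. Dlk1 was at rank 2157 to Chga and 2218 to Th, Penk at 2892 and 2888, and Star at 4027 and 3846. These ranks describe the same 13 libraries as the levels, and the regulators, granins and most neuron genes named here are also used by chromaffin cells.

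The members' proportions differed from aorta to aorta. For Npy in Npy plus Th the differences went beyond counting error, with 16.2% (15.1% to 17.4%) in Ad-FAM3A3 and 63.3% (55.7% to 70.4%) in Ad-sham2. Dbh had a median of 162 reads per 100 Th reads over the 12 aortas with at least 10 Th counts, and 154 to 213 in 10 of them. It had 64.6 in Ad-sham2 and 59.8 in Ad-FAM3A2. Slc6a2 had a median of 290, with 145 and 79.9 in the same aortas and 551 in Ad-FAM3A5. Npy had a median of 68.3 per 100 Th reads. It was highest in the 4 aortas with the fewest Th reads of the 12 and in no others above 108, with 172 in Ad-sham2, 163 in Ad-FAM3A5, 148 in Ad-FAM3A4 and 141 in Ad-FAM3A2, and lowest in Ad-FAM3A3, with 19.4. In Ad-FAM3A4 and Ad-FAM3A5, unlike Ad-sham2 and Ad-FAM3A2, Dbh was high as well, at 213 and 206. Ddc ran from 61.6 to 124.

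The libraries also differed in their levels of short against long genes. In Ad-FAM3A2, genes of up to 1000 bases stood 0.98 higher, as the difference of median log2 deviations, than genes of at least 5000 bases, and in Ad-sham2 0.4 higher, while the other 11 aortas lay between -0.35 and 0.179. Npy is 566 bases long and Slc6a2 6290. Npy per Th was also high in Ad-FAM3A4 and Ad-FAM3A5, where the difference of short from long genes was 0.06 and -0.35. Slc18a1, of 5401 bases, had its highest value in Ad-FAM3A2, 14.1 reads per 100 Th reads, and its lowest in Ad-sham2, 0. Dbh and Th differ little in length, 2692 and 2364 bases. The part of length in the ratios of these libraries was not tested.

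The groups were compared to ask whether Ad-FAM3A altered these genes. No difference exceeded the spread between aortas. In edgeR's fit of mean counts the values of all 9 genes were below 0, but the sign was not the same on every scale: the mean log2 CPM of Dbh was 0.41 higher in Ad-FAM3A, and limma-voom gave 0.69 for Dbh and 0.007234 for Th. edgeR's quasi-likelihood test, with adjustment over all 15811 genes kept, called 0 of the 9 genes (0% of all genes were called), and 0 of the 9 had an unadjusted p under 0.05, against 5.91% of all genes (2.98% higher and 2.93% lower in Ad-FAM3A). DESeq2's Wald test, an alternative, called 9 genes of the whole table and 0 of the 10. The fitted value was below 0 for 9 of 9 genes, as for 49.6% of all genes. Since the 9 followed the same aortas, they are not 9 separate measurements. Their median log2 fold change was -0.70, against 0.003187 for all genes. It was -1.65 without Ad-FAM3A3, -0.35 without Ad-sham5, -0.22 with the replicate number as a block and -0.29 by limma-voom.

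Npy had the lowest p of the 9. It averaged 74.6 ± 62.3 CPM (SD) over the 6 Ad-sham aortas and 26.9 ± 16.9 CPM over the 7 Ad-FAM3A aortas, a log2 change of -1.47 ± 0.85 by the fit (SE; edgeR, adjusted p = 0.811). All 7 Ad-FAM3A aortas were below the Ad-sham median, but 2 Ad-sham aortas, Ad-sham2 and Ad-sham4, were also low, and the two-sided exact permutation test on log2 CPM over all 1716 splits gave p = 0.766. Without Ad-sham4 the fitted log2 fold change was -1.74 (edgeR, unadjusted p = 0.0191), against an unadjusted p of 0.105 with all 13 aortas. It was -0.63 (edgeR, unadjusted p = 0.506) with the replicate number as a block and -0.41 (limma-voom, unadjusted p = 0.746) by the other test.

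Chga averaged 12.4 ± 13.9 CPM (SD) over the 6 Ad-sham aortas and 4.68 ± 5.49 CPM over the 7 Ad-FAM3A aortas, a log2 change of -1.40 ± 0.94 by the fit (SE; edgeR, adjusted p = 0.816). The exact permutation test gave p = 0.438. The value was -2.15 without Ad-FAM3A3 (edgeR, unadjusted p = 0.0395) and -0.86 without Ad-sham5. With the replicate number as a block it was -0.69. Chgb averaged 22.5 ± 23.7 and 15.2 ± 24.6 CPM, a log2 change of -0.57 ± 1.09 by the fit (SE; edgeR, adjusted p = 0.914). The granins thus had fitted values of the same sign, and each of their standard errors was close to 1.

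Among the enzymes, Th averaged 114 ± 111 CPM (SD) over the 6 Ad-sham aortas and 65.3 ± 85.6 CPM over the 7 Ad-FAM3A aortas, a log2 change of -0.80 ± 1.13 by the fit (SE; edgeR, adjusted p = 0.888). The mean of log2 CPM differed by -0.07, and the exact permutation test gave p = 0.975. The fit compares mean counts, which the highest aortas dominate, whereas the permutation test weighs Ad-sham4, the lowest, as much as Ad-sham5. Dbh had a log2 change of -0.63 ± 1.23 (SE) and an adjusted p of 0.918 by edgeR, and the mean of its log2 CPM differed by 0.41 in the other direction. For Ddc the values were -0.56 ± 1.08 and 0.916. Pnmt averaged 0.0518 CPM in Ad-sham and 0.0439 in Ad-FAM3A, with at most 5 counts in any aorta, so no fold is given.

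The transporters gave the same picture. The log2 fold changes were -0.42 for Slc6a2, with a standard error of 1.14, -0.70 for Slc18a2, with 0.91, and -0.96 for Slc18a1, with 0.96, and edgeR's adjusted p-values were 0.941, 0.879 and 0.852. The exact permutation p-values were 0.92, 0.809 and 0.686. Standard errors near 1 mean that differences of about this size between groups were not detectable against the spread between aortas. Absence of a call does not show that the groups were alike.

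**Figure D5:**
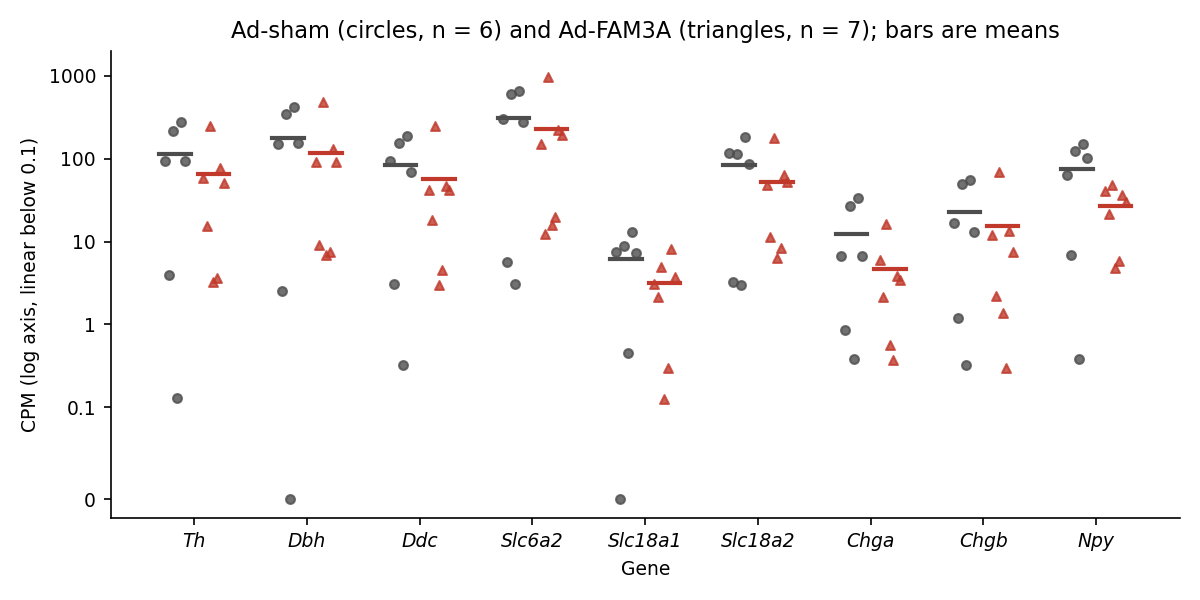
CPM of 9 genes in each of 6 Ad-sham aortas (circles) and 7 Ad-FAM3A aortas (triangles), on a log axis that is linear below 0.1, with bars at the group means. The points of the groups overlap for every gene, and for Npy no Ad-FAM3A aorta exceeds 48.1 CPM, while 4 Ad-sham aortas lie between 63.1 and 152 CPM.

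Other lists of the pathway gave 0 calls as well. Of the genes for the cofactor, breakdown and uptake of catecholamines, 11 of 12 were kept, 1 had an unadjusted p under 0.05, and the median log2 fold change was -0.37. All 11 had values below 0, including Gch1, the first enzyme of tetrahydrobiopterin synthesis. Gch1 had 89 to 904 counts and reached 44.5 CPM in Ad-sham and 59.4 CPM in Ad-FAM3A. The 15 neuron genes had 0 with an unadjusted p under 0.05 and a median of -0.65, and the 8 kept regulators 0 and -0.69. The 8 granule genes had 0 and -0.73, and the 6 genes of Schwann and satellite glia, the cells that wrap these neurons, 0 and -0.69. Lists of other tissues also had medians away from 0. The 2 fat genes had a median of -0.79, with 1 at an unadjusted p under 0.05, and the 3 kept kidney genes had 0 and -0.75. The 3 smooth muscle genes had 0 and a median of 0.42. The part of these tissues in the members' values was not tested.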

How the data were processed

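RNA of 13 aortas, 6 Ad-sham and 7 Ad-FAM3A, was analysed. Per the study's methods, the authors filtered reads after FastQC, aligned them to GRCm38 with Hisat2 and counted them with FeatureCounts; strand setting, annotation release and handling of multimapping reads are not given in the sources used here. The authors deposited whole-number counts per Ensembl gene, without normalization, and FPKM as a mean per group, which was not used in a test. The labels name an RNeasy and a SMARTER kit and the methods TRIzol and an NEB kit, so the extraction is uncertain. Every column carried the name of a labelled sample (0 unmapped).

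TMM scaling and filterByExpr preceded the comparison of groups by edgeR 4.0.16 (R 4.3.3) with the quasi-likelihood test and Benjamini-Hochberg adjustment over 15811 genes; calls needed an adjusted p under 0.05 together with a change of more than 1 on the log2 scale. Standard errors are the size of the fold change over the square root of F. Log2 CPM used a prior count of 2. Deposited coordinates equalled a GENCODE annotation of GRCm38 for 9 of the 10 genes; Slc18a2 differed. Alternatives were DESeq2 1.42.0, limma 3.58.1 (voom), other scalings and filters, the replicate number as a block and each aorta left out. The test was tried on simulated data. The 10 genes and all lists were chosen with earlier results of these data known. Genes named are the 10, the listed markers, the 5 genes closest to each, neighbours within 20 kb and Fam3a. Some genes that this rule allows are not reported here, so the genes given as closest to Ddc, Slc6a2 and Slc18a2 are incomplete.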

Additional observations from a re-analysis of the deposited data

Results flagged for a closer look

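Of 62 sets of values examined for 1 aorta far from the rest of its group, 6 met Dixon's criterion, where 3.1 are expected by chance. The log2 ratio of Dbh to Th was -0.606 in Ad-sham2, against 0.619 to 0.71 in the rest of the 5 Ad-sham aortas with at least 10 Th counts, and -0.733 in Ad-FAM3A2, against 0.632 to 1.07 in the rest of the 7 Ad-FAM3A aortas. The log2 ratio of Slc6a2 to Th was -0.321 in Ad-FAM3A2, against 1.37 to 2.42. These are the aortas in which short genes stood highest against long ones, and the part of gene length was not tested.

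The summed CPM of a list is given here as its log2, taken after a small constant was added. For the chromaffin peptides Penk, Cartpt and Dlk1 it was 3.79 in Ad-sham4, against 4.43 to 4.64 in the other Ad-sham aortas. It was 5.38 in Ad-FAM3A1, against 3.61 to 4.26 in the other Ad-FAM3A aortas. Penk had 606 counts in Ad-FAM3A1, and Th there was 58.8 CPM. For the sympathoadrenal regulators the log2 of the summed CPM was 7.57 in Ad-FAM3A3, against 5.02 to 6.04 in the other Ad-FAM3A aortas.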

How the results depend on the processing

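Over all alternatives, 182 fold changes of single members were computed: 179 had the sign first reported, 3 were reversed, and 0 adjusted calls changed. The reversed values were the log2 fold change of Th by limma-voom, 0.007234, and that of Dbh by limma-voom, 0.69, and with the replicate number as a block, 0.16. DESeq2's Wald test called 9 genes of the whole table (8 higher, 1 lower), edgeR 0 under every setting tried, with 491 to 2269 genes at an unadjusted p under 0.05. Leaving out each aorta gave 0 to 1 members at an unadjusted p under 0.05 and a median of the members from -1.65 to -0.35, and that median was -0.22 with the replicate block and -0.29 by limma-voom. A minimum of 10 counts in every aorta left 2 members to fit, Slc6a2 and Slc18a2. Of the 45 closest genes, 7 were shared by Spearman correlation and 26 with a prior count of 0.5. Correlations of deviations between same-numbered aortas were -0.0743, 0.448, 0.303, 0.276, -0.327 and 0.0161 for numbers 1 to 6 (median of all other pairs -0.0636), and 1 of 6 was best with its own number; not all were over 0.1, so the numbers were not taken as pairs; the replicate block called 0 genes, with 620 at an unadjusted p under 0.05, and Ad-FAM3A7 had no partner. Depth limited the Pnmt share where Th was low: 52 and 49 Th counts in Ad-FAM3A4 and Ad-FAM3A5 allowed up to 5.77% and 6.12% (as 3 counts).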

Other observations

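Transcripts of the seminal vesicle were seen in Ad-FAM3A2, the aorta with 5 Pnmt counts. Svs2 had 512 counts there and at most 52 in any other aorta, Svs4 616 and at most 46, and Svs5 752 and at most 59. These genes encode secreted proteins of the gland, and they were chosen after their values were seen.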
